A study of Mus musculus with 25 samples.

Results

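Among the 10 homozygous Bin1-cKO mice whose sorted microglia were sequenced, 3 kept reads assigned to Eno1b and 7 had almost none, and the comparison below is between those mice. The mice were chosen by a measured value and not by a label: a mouse was called Eno1b-keeping when its Eno1b count, as a share of its column, exceeded 10 CPM (counts divided by the total and scaled to 1e6), and Eno1b-lacking otherwise. The keeping mice were F-0333, F-0357 and F-0432, where the letter gives the sex and the digits the animal number. The lacking mice were F-0342, F-0440, M-0328, M-0329, M-0344, M-0436 and M-0437. On the scale of the rule, F-0333 with 72.2 CPM was the nearest mouse above the limit and M-0437 with 0.740 CPM the nearest below it. The 10 mice were part of 23 with a column in the table, of 25 that are labelled, and the others were 6 WT littermates and 7 heterozygous (Het) mice.

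All mice were 3 months old and came from a cross of a floxed Bin1 line (B6.129S6-Bin1tm2Gcp/J) with a Thy1-Cre line (FVB/N-Tg(Thy1-cre)1Vln/J). Homozygous mice were Bin1flox/flox Thy1-Cre+, Het mice Bin1flox/wt Thy1-Cre+, and WT mice Bin1flox/wt Thy1-Cre-, so that the WT littermates also carried 1 floxed allele. The Thy1 promoter drives Cre in neurons, whereas the cells measured were microglia, sorted as CD11b+ cells with intermediate CD45. All 3 keeping mice were female, and the lacking mice were 2 females and 5 males. The homozygous mice had animal numbers starting with 03 (2 keeping and 4 lacking mice) or 04 (1 and 3 mice), and those of all WT and Het mice started with 02, so the number range and the genotype cannot be told apart.

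Enolase catalyses the conversion of 2-phosphoglycerate to phosphoenolpyruvate, a late step of glycolysis, and Eno1 encodes the ubiquitous form of the enzyme. Eno1b is an additional, nearly identical gene, and the mouse genome holds further processed copies such as Gm4735 and Gm5855, which are annotated as pseudogenes. Short reads from one of these genes can match another, and counting programs such as RSEM share such reads out by estimation. Bin1, the floxed gene, encodes a membrane-bending adaptor protein.

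Column totals were between 10812969 and 16734846 counts in the 23 mice, and the homozygous mice covered this whole range. Xist and Ddx3y fitted the labelled sex of all 23 animals. The sorted cells carried microglial genes: 8 of 8 identity genes (among them Csf1r, Cx3cr1 and P2ry12) passed the filter on low counts, and their summed level was 49790 to 54460 CPM in keeping and 47570 to 55710 CPM in lacking mice. The immediate-early gene Fos stood apart in 4 homozygous mice, at 1466 CPM in F-0333, 828 CPM in F-0342, 926.1 CPM in M-0328 and 1207 CPM in M-0329, against 0.362 to 7.03 CPM in the other 6. These mice fell on both sides of the split.

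The enolase genes divided the homozygous mice into the same groups, and all homozygous mice of the lacking group lay outside the range of WT and Het mice for each of them. From here on, CPM values are scaled by the trimmed mean of M-values (TMM). Eno1b (ENSMUSG00000059040, mm10 chr18:48045335-48048412) was at 70.2 CPM in F-0333, 81.9 CPM in F-0357 and 88.3 CPM in F-0432. WT mice had 83.3 to 117.4 CPM and Het mice 71.6 to 94.8 CPM, so 2 keeping mice lay within and 1 just under the range of the 13 other mice. In 5 of the 7 lacking mice the deposited estimate was below 1e-30 of a read, and the other two had 0.539 CPM (M-0328) and 0.737 CPM (M-0437). No test of Eno1b is given, since its value chose the groups.

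Eno1 (chr4:150236721-150248879) ran in the opposite direction. It was at 300.0, 323.9 and 398.3 CPM in F-0333, F-0357 and F-0432, and between 510.8 CPM (M-0329) and 595.0 CPM (M-0437) in the lacking mice with a median of 527.1 CPM. The groups did not overlap, and WT mice (334.7 to 400.8 CPM) and Het mice (312.8 to 373.3 CPM) lay with the keeping mice. Gm4735 followed Eno1b, with 81.2, 83.1 and 94.3 CPM in keeping mice against 32.5 to 54.4 CPM in lacking mice. Gm5855 did so too, with 4.09 to 6.12 CPM against 0 to 0.579 CPM.

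**Figure D1:**
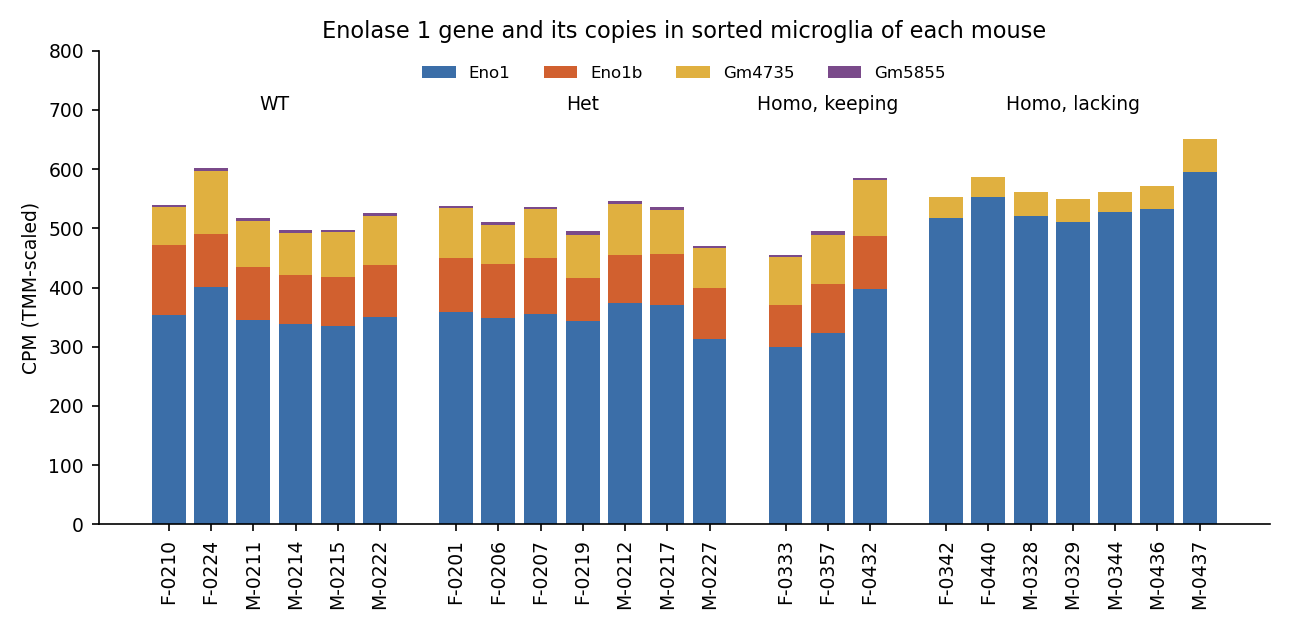
Stacked bars give the TMM-scaled CPM of Eno1, Eno1b, Gm4735 and Gm5855 in each of 23 mice, grouped as WT, Het, homozygous keeping and homozygous lacking. The orange Eno1b segment is missing in the 7 lacking mice, whose Eno1 segment is higher, and the height of the whole bar runs from 455.4 to 585.3 CPM in keeping and from 550.3 to 650.2 CPM in lacking mice.

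The sum over the 4 genes differed less than its parts. It was 511.9 ± 66.6 CPM (SD, n = 3) in keeping mice and 576.4 ± 34.8 CPM (SD, n = 7) in lacking mice. WT mice had 529.8 ± 38.9 CPM (SD, n = 6) and Het mice 519.2 ± 28.2 CPM (SD, n = 7). The ranges of keeping and lacking mice overlapped through F-0432 (585.3 CPM). F-0333 (455.4 CPM) and F-0357 (495.0 CPM) lay under all 7 lacking mice (550.3 to 650.2 CPM), as did all Het mice (470.4 to 546.7 CPM). WT mice ranged from 496.7 to 601.5 CPM. Eno1b took 15.7% ± 0.770 (SD, n = 3) of this sum in keeping mice and 17.4% ± 2.28 (SD, n = 6) in WT. Eno1 took 66.5% ± 1.40 (SD, n = 3) in keeping mice and 93.2% ± 0.924 (SD, n = 7) in lacking mice.

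How far the 4 genes can be told apart was read from their transcripts (GENCODE annotation of the same build). Of the 25-base stretches of Eno1b, 83.5% also occurred in Eno1, 66.2% in Gm4735 and 27.5% in Gm5855. Over the 1302 coding bases of Eno1, Eno1b differed at 8 and Gm4735 at 5, and at 5 of those 5 positions Eno1b had the base of Gm4735. At the read length of 50 bases, 27.8% of the stretches of Eno1 occurred in none of the other 3 transcripts, as did 15.5% for Eno1b, 5.59% for Gm4735 and 84.3% for Gm5855. Levels of Eno1, Eno1b and Gm4735 are therefore uncertain as single genes, and no test of the enolase genes is given.

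The pair of stretches below, from exon 8 of Eno1 (chr4:150246603-150246652, plus strand, coding bases 701 to 750) and from Gm4735 (chr2:80837841-80837890, plus strand), differ in the single base in capitals, and between these genes a 50-base read from here can be assigned by that base alone. They are shown because Eno1 and Gm4735 moved in opposite directions across the split.
Eno1: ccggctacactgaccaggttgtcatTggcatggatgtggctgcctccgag
Gm4735: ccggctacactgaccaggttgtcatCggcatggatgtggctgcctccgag

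Beyond the enolase genes, few genes followed the split. With the 4 enolase genes set aside, 12 of 13712 genes tested were differentially expressed genes (DEGs) between keeping and lacking mice, which is 0.0875% (edgeR quasi-likelihood test with sex as a term, at an adjusted p under 0.05 with more than a 1.5-fold difference). Of these, Nbl1, Klrd1 and Ccr1l1 were higher in keeping mice, and Padi2, Slc2a5, Chek2, Pianp, Gdpd3, 2610035D17Rik, Gm13394, Gm47854 and Gm13910 were lower. All 23 mice were in this fit, WT and Het mice included, so the spread was estimated over all of them. The p-values describe association with a split made on a measured gene, in which sex was unequal. The count was 6 without F-0357, 7 without F-0432 and 19 without M-0329. Among females alone (3 keeping against 2 lacking mice, with the WT and Het females in the fit) it was 11. It was 24 when the homozygous mice were limited to the 03 range, with WT and Het mice kept, and 29 with DESeq2. When the 10 homozygous mice were fitted alone, 0 genes were called by edgeR, 3.39% of 12761 genes having an unadjusted p below 0.05. Nbl1, Padi2 and Slc2a5 were called in 35 of 36 alternative fits each, the fit of the homozygous mice alone being the exception.

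Chromosome 18, which carries both Bin1 (chr18:32377230-32435737) and Eno1b 15.6 Mb away, held no further DEG. Of its 314 genes tested without Eno1b, 0 were called by edgeR, DESeq2 or limma-voom. An unadjusted p below 0.05 was found for 13 of the 314 genes (4.14%), against 4.84% of all genes tested. Between Bin1 and Eno1b, 2 of 107 genes reached that level (1.87%), and within 5 Mb of Eno1b 0 of 24 did, with 0 DEGs in either interval. Within 5 Mb of Bin1 the count was 2 of 64 genes (3.125%), Ammecr1l at 0.594 Mb and Slc25a46 at 0.767 Mb from Bin1.

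The median log2 fold change, keeping against lacking, was 0.05 over chromosome 18 and 0.04 within 5 Mb of Eno1b, and 0.01 over all genes tested. The median of the absolute log2 fold change was 0.13 over chromosome 18, 0.12 within 5 Mb of Eno1b and 0.14 over all genes tested. Keeping and lacking mice did not overlap in 3 of the 314 genes (0.955%), against 1.77% of all genes tested. These were Map3k2, a kinase of the MAP kinase cascade (36.2 to 40.5 against 28.1 to 34.7 CPM), Fzd8, a Wnt receptor (6.71 to 7.80 against 3.32 to 6.24 CPM), and Hbegf, a ligand of the EGF receptor (5.45 to 5.79 against 3.29 to 5.07 CPM), and they were named after their values were seen. Their unadjusted p-values in edgeR were 0.0941, 0.171 and 0.482. Map3k2 (0.140 Mb from Bin1) and Hbegf (4.07 Mb) were the 2 without overlap among the 64 genes within 5 Mb of Bin1 (3.125%). Of these 64 genes, 43 were at higher values in keeping mice, against 187 of 314 on chromosome 18 and 7155 of 13712 over all genes tested.

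**Figure D2:**
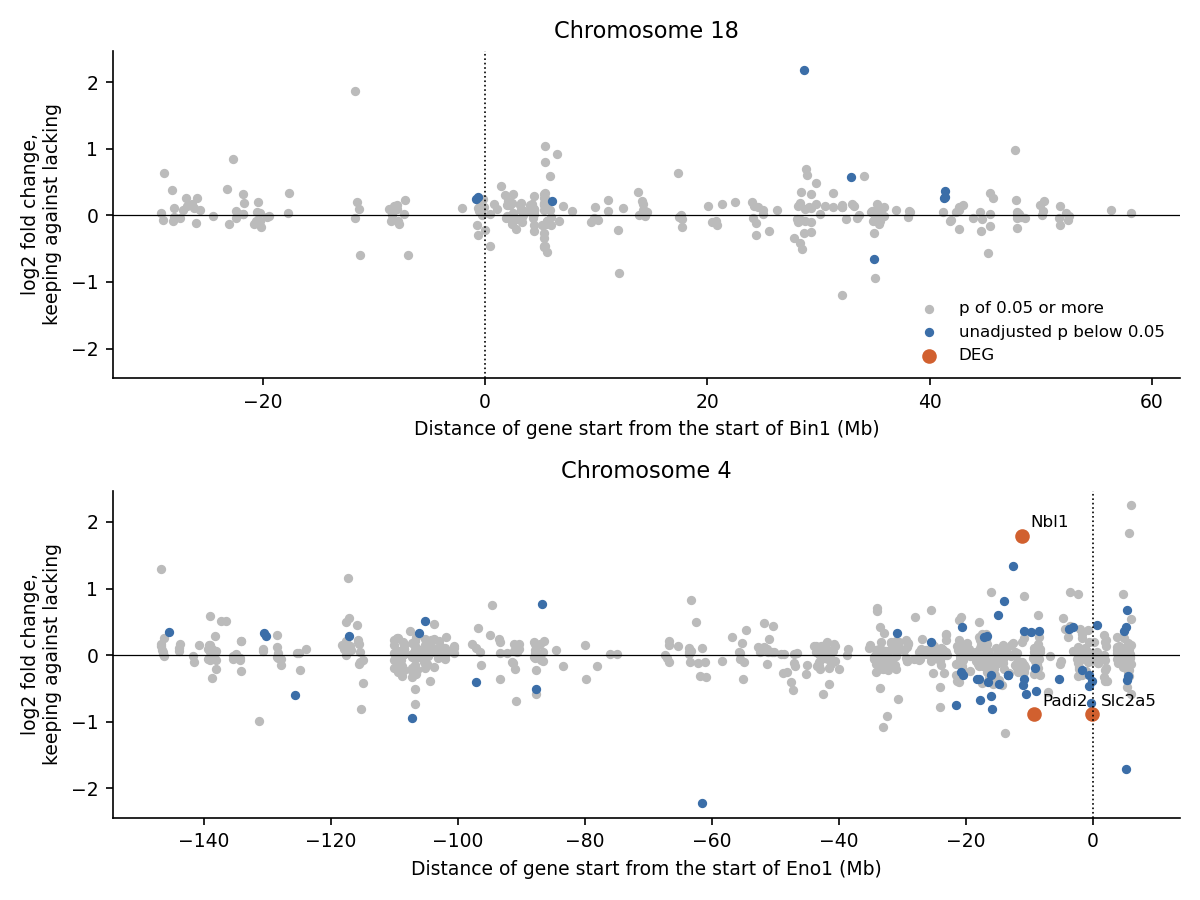
The log2 fold change of keeping against lacking mice is plotted against the distance of a gene's start from the start of Bin1 (upper panel, 282 genes of chromosome 18) or of Eno1 (lower panel, 727 genes of chromosome 4) in Mb, for genes whose mean log2 CPM was 0 or more, without the enolase genes and without the gene at the dotted line. Grey points have an unadjusted p of 0.05 or more, blue points a lower one, and orange points are DEGs, which are Nbl1, Padi2 and Slc2a5 on chromosome 4, while chromosome 18 has none.

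Bin1 itself did not separate the groups. Its level was 385.3 CPM in F-0333, 647.1 CPM in F-0357 and 541.7 CPM in F-0432, and 327.3 to 675.6 CPM with a median of 395.5 CPM in the lacking mice, so that the keeping mice lay inside the range of the lacking ones. WT mice had 598.3 to 805.3 CPM. Between keeping and lacking mice it differed by -0.0018 ± 0.17 (SE) on the log2 scale, and the sign changed with the settings. Against WT, Bin1 was at -0.60 on the log2 scale in both groups, with an adjusted p of 0.0808 for keeping and 0.00507 for lacking mice (edgeR). The comparisons with WT share their WT mice.

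Gnpda1 (glucosamine-6-phosphate deaminase), 5.89 Mb from Bin1, and Gm8615, a processed copy of it on chromosome 5, differed from WT in both groups. Gnpda1 was at 117.3 to 139.2 CPM in keeping mice, 114.1 to 153.2 CPM in lacking mice and 74.0 to 90.1 CPM in WT. Its log2 fold change was 0.60 in keeping and 0.74 in lacking mice against WT (adjusted p of 0.00551 and 3.36e-06), and -0.14 ± 0.11 (SE) between the groups. Gm8615 was at 0.122 to 1.06 CPM in keeping and 0 to 0.738 CPM in lacking mice against 8.23 to 13.1 CPM in WT, with log2 fold changes of -4.61 and -4.68 (adjusted p of 0.000475 and 1.14e-07). The change of both genes from WT was called by edgeR in mice with and without Eno1b, and the groups overlapped. Of the 25-base stretches of Gm8615, 63.9% also occurred in Gnpda1, as did 16.0% of those of Gnpda1 in Gm8615. Reads can therefore be assigned to either gene, and their levels are uncertain as single genes.

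The 10 chromosome 18 genes of smallest p had adjusted p-values of 0.581 to 0.969 in edgeR. Pdgfrb, the PDGF receptor of mural cells, came first, with 0.151 CPM in F-0333, 5.49 CPM in F-0357 and 10.5 CPM in F-0432 against 0.134 to 3.39 CPM in lacking mice and 5.87 to 11.0 CPM in WT. It was called (adjusted p = 0.0267) only when F-0333 was left out, and its lowest keeping mouse lay near the lowest lacking one. Tubb6, a tubulin, was at 15.8 to 16.8 CPM in keeping and 14.7 to 31.6 CPM in lacking mice. Alpk2, a kinase, was at 101.9 to 118.0 CPM in keeping and 48.1 to 110.9 CPM in lacking mice, against 34.3 to 79.1 CPM in WT. Me2, the mitochondrial malic enzyme, Smad4, the shared mediator of TGF-beta signalling, Ammecr1l and Slc25a46 had log2 fold changes of 0.36, 0.25, 0.28 and 0.24 with overlapping groups. The other three, Eif3s6-ps2, Pcdhgc3 and Gm26575, were at or under 1.665 CPM in every homozygous mouse.

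Chromosome 4, which carries Eno1, gave 3 of the 12 DEGs. Nbl1, Padi2 and Slc2a5 all lay within 15 Mb of Eno1, a window chosen after the values were seen. In this window 32 genes had an unadjusted p below 0.05 (14.3% of those tested) and 14 did not overlap between the groups (6.25%), with the enolase genes left out. On the rest of the chromosome 28 of 616 genes (4.55%) reached that p and 9 (1.46%) did not overlap. Over whole chromosomes the share with an unadjusted p below 0.05 was 7.14% for chromosome 4, and it was higher for chromosome 3, at 7.69% of 793 genes with 0 DEGs there. Chromosome 6 held 2 DEGs, Klrd1 and Pianp, and its share was 6.15% of 667 genes. Neighbouring genes are not independent, and no test of the window is given.

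**Figure D3:**
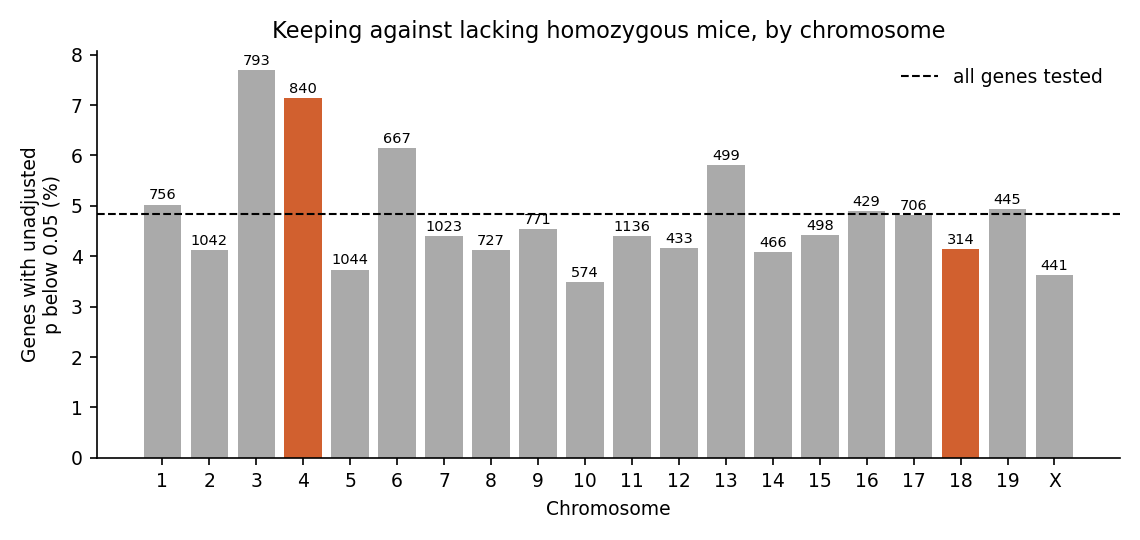
Bars give, for each chromosome, the percentage of genes tested with an unadjusted p below 0.05 between keeping and lacking mice, with the number of genes tested above the bar and the percentage over all genes (4.84%) as a dashed line. Chromosomes 3 and 4 stand highest at 7.69% and 7.14%, and chromosome 18 lies under the line at 4.14%.

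Slc2a5, a fructose transporter that is abundant in microglia, lies 0.0926 Mb from Eno1 (chr4:150119283-150144169). It was at 607.0 CPM in F-0333, 623.8 CPM in F-0357 and 692.5 CPM in F-0432, and between 976.8 CPM (M-0436) and 1368 CPM (M-0328) in lacking mice with a median of 1145 CPM. The groups did not overlap, and all 3 keeping mice were under every WT and Het mouse (864.7 to 1356 CPM). The log2 fold change was -0.88 ± 0.13 (SE, adjusted p = 0.00116, edgeR) between the groups and -0.82 against WT in keeping mice (adjusted p = 0.00280), but 0.06 in lacking mice (adjusted p = 0.746). For this gene it was the keeping mice that stood apart from WT.

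Padi2, a peptidylarginine deiminase that converts arginine to citrulline in proteins, showed the reverse (chr4:140906344-140952586). Its level was 88.0, 97.3 and 108.5 CPM in F-0333, F-0357 and F-0432, and 138.3 to 201.5 CPM with a median of 177.1 CPM in the lacking mice. All 7 lacking mice were above every WT and Het mouse (96.1 to 132.6 CPM). Between the groups the log2 fold change was -0.88 ± 0.12 (SE, adjusted p = 0.000354, edgeR). Against WT it was -0.17 in keeping mice (adjusted p = 0.504) and 0.71 in lacking mice (adjusted p = 1.11e-05).

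Nbl1, a secreted antagonist of bone morphogenetic proteins, had the third-largest gap between the groups outside the enolases among genes whose mean log2 CPM was 0 or more (chr4:139082284-139092993). It was at 35.4, 30.0 and 29.1 CPM in F-0333, F-0357 and F-0432, and between 4.45 CPM (M-0436) and 14.2 CPM (M-0328) in the lacking mice with a median of 9.08 CPM. The nearest mice of the groups were 1.03 apart on the log2 scale, and all 7 lacking mice were under the range of the 13 WT and Het mice (26.1 to 48.6 CPM), which held all 3 keeping mice. The log2 fold change was 1.80 ± 0.25 (SE, adjusted p = 0.000573, edgeR) between the groups, -0.27 in keeping mice against WT (adjusted p = 0.660) and -2.07 in lacking mice against WT (adjusted p = 2.20e-07).

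All 3 genes were also called among the females alone, where 3 keeping mice were set against F-0342 and F-0440. The fit of the females also held 2 WT and 4 Het mice, whose spread entered the estimate. The adjusted p-values there were 0.00137 for Nbl1, 0.0109 for Padi2 and 0.000460 for Slc2a5, with log2 fold changes of 1.93, -0.86 and -0.85. The other 9 DEGs were not called among the females alone. In the fit of the 10 homozygous mice alone the log2 fold changes were 1.92, -0.86 and -0.85 with adjusted p-values of 0.910, 0.285 and 0.140.

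Further genes of the window, named after their values were seen, were divided or nearly divided between the groups without passing the test. Capzb, a subunit of the actin-capping protein 0.0999 Mb from Nbl1, was at 366.2 to 380.5 CPM in keeping and 458.4 to 584.6 CPM in lacking mice, with no overlap and a log2 fold change of -0.45 ± 0.10 (SE, adjusted p = 0.125, edgeR). WT mice had 283.2 to 351.3 CPM, so all homozygous mice lay above WT and the lacking ones farther. Aldh4a1, which degrades proline in mitochondria, was at 15.9 to 18.6 CPM against 18.8 to 31.3 CPM. H6pd, the hexose-6-phosphate dehydrogenase of the endoplasmic reticulum and the neighbour of Slc2a5 at 0.110 Mb, was at 41.4 to 66.5 CPM against 61.6 to 90.3 CPM, with overlapping ranges. Errfi1, a feedback inhibitor of the EGF receptor, was at 77.9 to 82.0 CPM against 47.6 to 70.2 CPM. E2f2, a cell-cycle transcription factor, was at 11.6 to 12.4 CPM against 4.85 to 11.0 CPM.

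**Figure D4:**
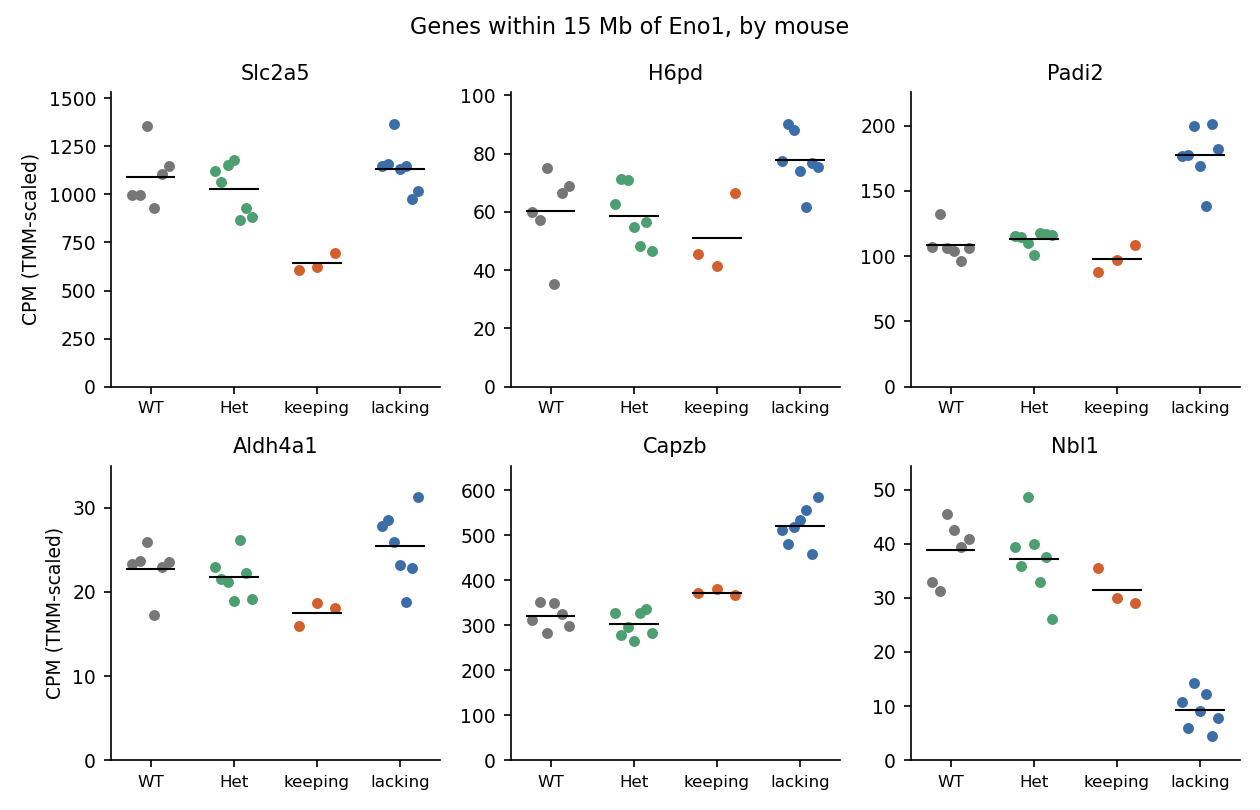
TMM-scaled CPM of Slc2a5, H6pd, Padi2, Aldh4a1, Capzb and Nbl1 in each WT, Het, keeping and lacking mouse, with a line at the group mean and axes that start at 0. Padi2, Capzb and Nbl1 show the lacking mice away from all others, and Slc2a5 shows the 3 keeping mice at 607.0 to 692.5 CPM under all others.

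Of the other DEGs higher in keeping mice, Klrd1 (chr6:129591782-129598775) lies 4.59 Mb from Pianp and encodes the CD94 receptor subunit of natural killer cells. It was at 5.60 CPM in F-0333, 12.3 CPM in F-0357 and 11.3 CPM in F-0432. The lacking mice had 2.33 to 8.09 CPM with a median of 2.82 CPM, and M-0328 alone reached into the keeping range. Its log2 fold change was 1.93 ± 0.33 (SE, adjusted p = 0.00612, edgeR), and the lacking mice were at -1.71 against WT (adjusted p = 0.000184). Ccr1l1 (chromosome 9), a chemokine receptor-like gene, was at 4.77 to 8.29 CPM against 2.05 to 5.16 CPM, a log2 fold change of 1.55 ± 0.29 (SE, adjusted p = 0.0221), and it was at -1.25 in lacking mice against WT (adjusted p = 0.00112). The call of Klrd1 was lost without F-0357 or F-0432, and that of Ccr1l1 without F-0342, F-0357, F-0432 or F-0440.

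Among genes lower in keeping mice, Pianp, Gm13394 and Gm47854 were near 0 in the 3 keeping mice and in F-0342. Pianp, a transmembrane ligand of the PILR-alpha receptor, was at 0.227, 0.0703 and 0.549 CPM in F-0333, F-0357 and F-0432. It was at 0.356 CPM in F-0342 and at 11.9 to 40.3 CPM in the other 6 lacking mice, against 12.8 to 16.5 CPM in WT. M-0437 was the highest of all mice. The log2 fold change between the groups was -5.46 ± 0.85 (SE, adjusted p = 0.00182, edgeR) although F-0342 lay among the keeping mice. The SD was 12.1 CPM in lacking mice, against 1.65 CPM in WT and 1.62 CPM in Het mice, which shared the fit.

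Gm13394 (chromosome 2), a processed pseudogene with 97.4% of its 25-base stretches in Gapdh, was low in the same 4 mice as Pianp. It was at 0.0757, 0.211 and 0.366 CPM in the keeping mice, at 0.178 CPM in F-0342 and at 8.93 to 22.5 CPM in the other 6. Gm47854 (chromosome 9), a lincRNA that shares 21.5% of its stretches with Gapdh, was at 0.0757 to 0.305 CPM in the keeping mice, 0.267 CPM in F-0342 and 4.72 to 12.8 CPM in the others. Log2 fold changes were -5.33 and -4.49 (adjusted p of 0.00120 and 0.00311 in edgeR). The calls of Pianp, Gm13394 and Gm47854 held in all 23 fits that left out 1 mouse. They were lost with limma-voom (adjusted p of 0.876, 0.868 and 0.748) and in the 10 homozygous mice alone. Among the females alone they were lost too (adjusted p of 0.153, 0.185 and 0.253 in edgeR). That of Gm47854 was also lost with the homozygous mice limited to the 03 range. Gapdh itself, a glycolytic enzyme whose gene lies 0.159 Mb from Pianp on chromosome 6, was at 119.2 to 146.9 CPM in keeping and 98.9 to 134.0 CPM in lacking mice, a log2 fold change of 0.09 ± 0.11 (SE). Reads of Gapdh, its many copies and the shared part of Gm47854 can be assigned to one another. The levels of Gm13394 and Gm47854 are therefore uncertain.

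**Figure D5:**
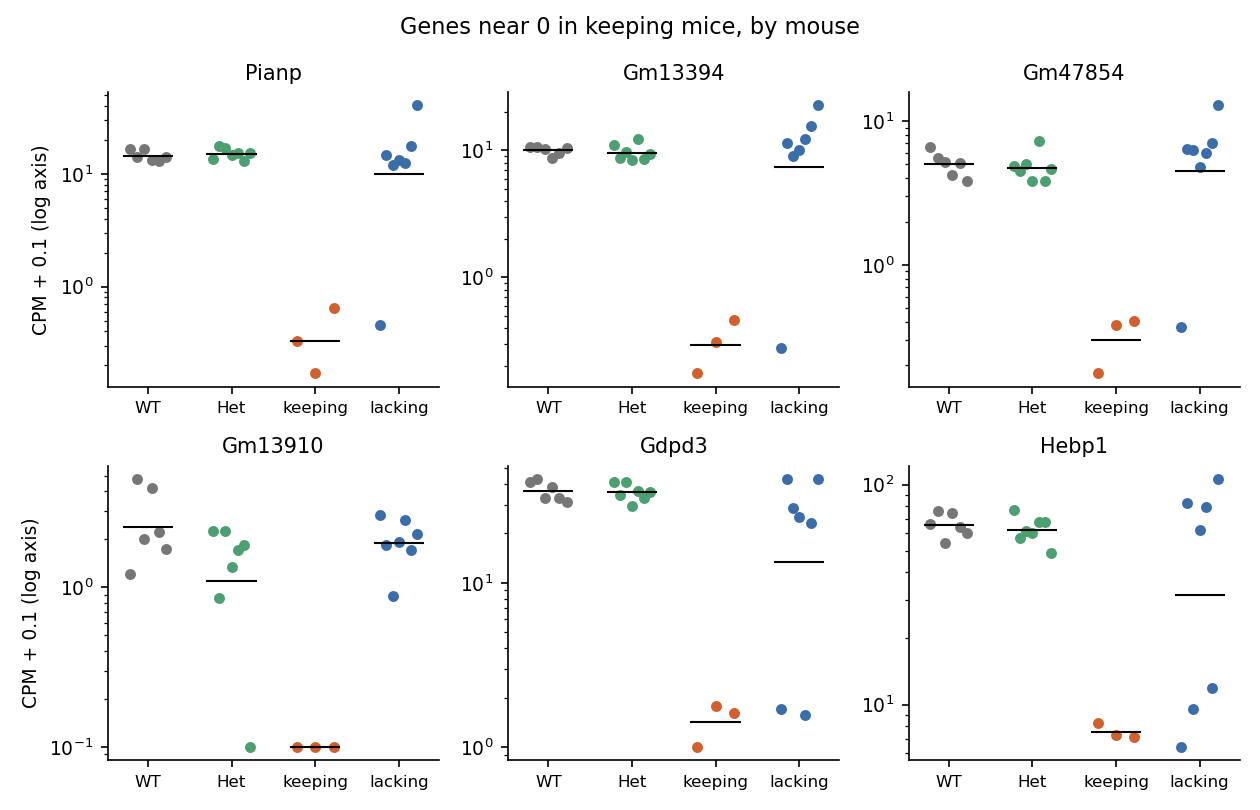
TMM-scaled CPM plus 0.1 on log axes for Pianp, Gm13394, Gm47854, Gm13910, Gdpd3 and Hebp1 in each WT, Het, keeping and lacking mouse, with a line at the geometric mean. The keeping mice are low in every panel, and 1 lacking mouse joins them for Pianp, Gm13394 and Gm47854, 2 for Gdpd3 and 3 for Hebp1.

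Gdpd3 (chromosome 7), a phospholipase of the glycerophosphodiester phosphodiesterase family, divided the mice differently. It was at 0.909, 1.69 and 1.52 CPM in keeping mice, at 1.60 CPM in F-0342 and 1.48 CPM in M-0344, and at 22.98 to 42.9 CPM in the other 5 lacking mice, against 31.0 to 42.8 CPM in WT. Its log2 fold change was -4.15 ± 0.80 (SE, adjusted p = 0.0254, edgeR). The call was lost without F-0333, F-0357, F-0432 or F-0440. Hebp1, a haem-binding protein on chromosome 6, lies 10.1 Mb from Pianp and was named after its values were seen. It was at 7.01 to 8.18 CPM in keeping mice, 6.33 CPM in F-0342, 9.41 CPM in M-0328 and 11.7 CPM in M-0436. The remaining 4 lacking mice were at 62.0 to 106.0 CPM, and the adjusted p in edgeR was 0.274. Of the lacking mice, F-0342 was low for Pianp, Gm13394, Gm47854, Gdpd3 and Hebp1 alike, M-0344 for Gdpd3, and M-0328 and M-0436 for Hebp1.

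Gm13910 (chromosome 2), a processed pseudogene with 94.7% of its 25-base stretches in Hadhb, had 0 counts in all 3 keeping mice. It was at 0.779 to 2.76 CPM in the lacking mice (1.90 ± 0.655 CPM, SD, n = 7), and at 0 in 1 Het mouse. Taking 3 counts over the 42636218 counts of the keeping mice as the limit that 0 allows, the lacking mice were at least 27.0-fold higher (adjusted p = 0.00593, edgeR). The limit covers counting error only. Reads of Gm13910 and Hadhb can be assigned to one another, so the level of this copy is uncertain. Hadhb, a subunit of the mitochondrial trifunctional protein, was at 111.6 to 136.2 CPM in keeping and 107.8 to 140.8 CPM in lacking mice. The call of Gm13910 was lost without F-0357 or F-0432, with limma-voom (adjusted p = 0.423) and with the homozygous mice limited to the 03 range. It was also lost among the females alone and in the 10 homozygous mice alone (adjusted p of 0.0507 and 0.0871 in edgeR).

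2610035D17Rik (chromosome 11), a lincRNA, was at 3.25, 1.76 and 4.27 CPM in F-0333, F-0357 and F-0432, at 3.84 CPM in M-0328 and at 9.19 to 19.5 CPM in the other 6 lacking mice. All 7 lacking mice were above the 13 WT and Het mice (1.27 to 3.21 CPM), as were 2 keeping mice. Its log2 fold change was -2.19 ± 0.43 (SE, adjusted p = 0.0323, edgeR), and 2.80 in lacking mice against WT (adjusted p = 7.52e-06). Chek2 (chromosome 5), a checkpoint kinase of the DNA damage response, was at 11.7 to 16.8 CPM in keeping and 17.7 to 30.7 CPM in lacking mice, a log2 fold change of -0.86 ± 0.17 (SE, adjusted p = 0.0323). These were the least stable calls, held in 15 and 13 of 23 fits that left out 1 mouse. That of 2610035D17Rik was lost without F-0333, F-0357, F-0432, F-0440, M-0344, M-0437 or the WT mice F-0224 and M-0222. That of Chek2 was lost without F-0333, F-0357, F-0432, F-0342, F-0440, M-0437, the Het mice F-0201 and F-0219, or the WT mice F-0210 and M-0222.

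Over all genes, likeness to the split was measured as the gap in log2 CPM between the nearest mice of the groups. In 243 of 13712 genes (1.77%) the groups did not overlap, 140 higher and 103 lower in keeping mice. Of the 12 DEGs, 5 were among them. Any split of 3 against 7 mice leaves some genes without overlap, and how many was not tested. The 10 largest gaps among genes whose mean log2 CPM was 0 or more were those of Gm13910 (2.66), Gm14434 (1.66), Nbl1 (1.03), Gm6563 (0.54), Slc2a5 (0.50), Chst1 (0.44), 4930594C11Rik (0.37), Gm26724 (0.35), Padi2 (0.35) and Cdiptos (0.35). Chst1, a carbohydrate sulfotransferase, was at 9.99 to 14.3 CPM in keeping, 19.5 to 59.5 CPM in lacking and 6.53 to 11.7 CPM in WT mice, with a log2 fold change of -1.49 ± 0.36 (SE) and an adjusted p of 0.225 in edgeR. Cdiptos (chr7:126971722-126976098, minus strand) lies 0.196 Mb from the DEG Gdpd3 and overlaps in part with Cdipt (chr7:126975914-126980501, plus strand). Reads from the overlap cannot be told apart where the counting strand is not given. Cdipt, named after its values were seen, was at 124.0 to 145.8 CPM in keeping and 118.7 to 136.7 CPM in lacking mice.

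Against WT, the keeping mice had 162 DEGs (1.18% of genes tested, 45 higher and 117 lower) and the lacking mice 449 (3.27%, 237 of them lower), in comparisons that share the WT mice and differ in the number of mice. Of the 12 DEGs between the groups, Nbl1, Padi2, Klrd1, Ccr1l1 and 2610035D17Rik were called against WT in the lacking mice and had adjusted p-values of 0.504 to 0.816 in the keeping mice. Slc2a5, Chek2, Pianp, Gdpd3, Gm13394, Gm47854 and Gm13910 were called in the keeping mice, with adjusted p-values of 0.322 to 0.948 in the lacking mice.

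Outside the enolase copies, no gene of glycolysis was called. Of 21 glycolysis genes tested without the enolase copies, 9 were higher and 12 lower in keeping mice, 0 were DEGs and 0 had an unadjusted p below 0.05, with a median log2 fold change of -0.03 against 0.01 for all genes. The smallest p-values were those of the enolase gene Eno3 (-0.34 ± 0.18, SE) and the aldolase gene Aldoc (0.86 ± 0.52, SE).

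Gene lists of microglial state held 0 DEGs in each case. Over all genes tested, 4.84% had an unadjusted p below 0.05, 1.77% did not overlap, and 7155 of 13712 were at higher values in keeping mice. Of 16 homeostatic genes, 10 were at higher and 6 at lower values in keeping mice, with a median log2 fold change of 0.05. An unadjusted p below 0.05 in edgeR was found for 2 of them, Olfml3 (log2 fold change of -0.40 ± 0.15, SE) and Fcrls (-0.69 ± 0.26, SE). Of 15 disease-associated genes, 8 were at higher and 7 at lower values in keeping mice, with a median of 0.03. An unadjusted p below 0.05 was found for 4 of them, Apoe, Clec7a, Cd9 and Ccl6, all at higher values in keeping mice. Clec7a, the beta-glucan receptor (chr6:129461591-129472779), lies near the DEG Klrd1 and did not overlap between the groups. It was at 19.8 to 33.2 CPM in keeping, 7.37 to 16.5 CPM in lacking and 6.88 to 10.3 CPM in WT mice (0.96 ± 0.35, SE, adjusted p = 0.808 in edgeR). Of 22 interferon-induced genes 15 had lower values in keeping mice, with a median of -0.18, and Gbp3 (-0.50 ± 0.18, SE) was the 1 with an unadjusted p below 0.05. Of 14 chemokine and cytokine genes 13 had lower values, with a median of -0.24 over the list, and 0 of these 13 had an unadjusted p below 0.05. Only Ccl9 did, at 0.53 ± 0.19 (SE) and an adjusted p of 0.797 in edgeR. The summed level of the chemokine and cytokine list overlapped, at 706.1 to 951 CPM in keeping and 603.7 to 963.8 CPM in lacking mice. Of 8 MHC class II genes and 19 immediate-early genes, 0 had an unadjusted p below 0.05.

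The summed markers of other cells overlapped between keeping and lacking mice in all lists but that of border macrophages. Summed neuronal markers were at 6.51 to 10.1 CPM in keeping and 5.45 to 10.5 CPM in lacking mice, astrocyte markers at 262.7 to 313.7 against 231.2 to 302.7 CPM, and oligodendrocyte markers at 167.8 to 210.7 against 153.6 to 207.6 CPM. Endothelial and mural markers were at 38.7 to 53.9 against 27.2 to 56.8 CPM. Monocyte and neutrophil markers were at 18.5 to 54.4 against 14.9 to 108.0 CPM, and lymphocyte markers at 0.492 to 1.22 against 0 to 1.18 CPM. Border macrophage markers were at 268.7 to 289.6 CPM in keeping and 293.7 to 440.1 CPM in lacking mice, without overlap, and 274.9 to 471.3 CPM in WT and Het mice. Most of that sum was the scavenger receptor Stab1, and of the 9 members tested only Stab1 and Ms4a7 were at lower values in keeping mice. The other 7, among them Cd163 (log2 fold change of 0.94), Pf4 (0.46), Cbr2 (0.43) and Clec4n (1.21), had unadjusted p-values of 0.321 or more. Stab1 was at 241.5 to 258.0 against 266.9 to 407.9 CPM, and microglia also express it (log2 fold change of -0.41 ± 0.16, SE, adjusted p = 0.835 in edgeR). Its part in the other results was not tested. In bulk samples fewer cells of a type and less RNA per cell cannot be told apart.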

How the data were processed

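RNA from FACS-sorted microglia of single mice was sequenced. Per the paper's methods, the authors aligned the reads to mm10 with OmicSoft OSA4, used Ensembl genes and ran RSEM, and the submitters' processing notes also name DESeq2. The deposited table holds RSEM's expected counts as the authors made them from the alignments, not normalized, for 43411 genes and 23 mice, and 2 labelled mice were not analysed here. A strand setting is not given in the sources used here.

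Counts were rounded to whole numbers, filtered by expression in 4 groups (13716 genes) and tested with edgeR 4.0.16 in R 4.3.3 (quasi-likelihood, TMM, sex as a term, Benjamini-Hochberg adjustment). The main fit held all 23 mice, so the 4 groups shared an estimate of the spread. DEGs needed an adjusted p under 0.05 with more than a 1.5-fold difference. Alternatives used DESeq2 1.42.0, limma 3.58.1 with voom, other normalizations, filters, subsets and each mouse left out. Positions came from GENCODE of the same build, which matched 42929 genes.

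The split rests on measured Eno1b, and the members, gene lists and tests were chosen with earlier results of these data known. Named genes were Eno1b, Eno1, Bin1, Gnpda1, Gm8615, up to 6 DEGs per direction of largest change whose mean log2 CPM was 0 or more, and those of smallest p, 10 chromosome 18 genes of smallest p, 10 with the largest gaps, and the 2 of smallest p in each list. The other DEGs and others said to be so were named after their values were seen. Of the mice, 1 sample each was taken, so p-values measure the spread between mice. The precision of single values is limited by column totals of 10812969 to 16734846 counts.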

Additional observations from a re-analysis of the deposited data

Results flagged for a closer look

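In 114 groups of mice (38 genes in the lacking, WT and Het mice), 11 single mice lay far from the others of their group on the log2 scale, which is 9.65%. Chance flags about 1 in 20 groups. F-0342 stood apart from the other 6 lacking mice for Pianp (0.356 CPM), Gm13394 (0.178 CPM) and Gm47854 (0.267 CPM), and these 3 genes share 1 mouse. Among lacking mice, M-0436 was low for Dhrs3 (184.2 CPM). Among WT mice, F-0224 was high for Padi2 (132.6 CPM), and M-0214 was low for H6pd (35.2 CPM) and Aldh4a1 (17.2 CPM), 2 genes near Eno1. Among Het mice, M-0227 was low for Gm13910 (0 CPM) and Chst1 (4.10 CPM), F-0219 low for Padi2 (100.9 CPM) and M-0212 high for Gm47854 (7.19 CPM).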

How the results depend on the processing

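The 12 DEGs became 0 in the 10 homozygous mice alone, and 24 with the homozygous mice limited to the 03 range (WT and Het mice kept). They became 29 with DESeq2, 24 with no filter on low counts, and 6 to 19 when 1 mouse was left out. The cause was not tested, beyond the fewer mice fitted in the first pair and the 24754 genes tested in the last. All 12 were among the calls of DESeq2, 5 of 12 among those of limma-voom (11 DEGs), 3 of 12 among the 11 of the females alone and 9 of 12 among the 10 without a sex term. With an immediate-early score as a term, added after seeing the data, there were 18, with all 12 kept. On chromosome 18 the count of 0 became 1 with the homozygous mice limited to the 03 range (Rps2-ps10). It was 0 to 1 when 1 mouse was left out (Pdgfrb, without F-0333). Genes whose groups did not overlap numbered 244 without TMM scaling and 2326 among the females alone, where 3 mice face 2.

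The log2 fold change of Bin1 turned positive with no sex term (0.18), upper-quartile normalization (0.0089), no filter on low counts (0.0018) and the immediate-early score (0.012), and lay between -0.18 and 0.17 when 1 mouse was left out. That of Gm8615 turned to -0.077 with limma-voom and lay between -1.56 and 0.54 when 1 mouse was left out. Of the 38 named genes followed, no other changed direction in up to 36 alternatives. No paired analysis was possible because the animal numbers of the groups do not recur.

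With 3 keeping mice, all female, only 2 lacking mice were of the same sex. Depth limits Gm13910 and Gm5855, which had few counts per mouse.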

Other observations

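Alternative fits called further genes on many chromosomes, and 2 of chromosome 4 and a copy of a gene there are given here, named after their values were seen. Tlr12, a Toll-like receptor for profilin, was at 53.0 to 61.0 CPM in keeping and 57.1 to 134.4 CPM in lacking mice, against 82.0 to 116.3 CPM in WT, with a log2 fold change of -0.75 ± 0.19 (SE, adjusted p = 0.284 in edgeR). Cd52, a small surface glycoprotein of leukocytes, was at 43.5 to 64.1 CPM against 52.2 to 96.0 CPM (-0.61 ± 0.15, SE, adjusted p = 0.284 in edgeR). Both were called by DESeq2.

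Mrto4-ps2, a processed pseudogene on chromosome 12, was at 0.422 to 1.58 CPM in keeping mice and at 0 in all 7 lacking mice, with 0.0759 to 0.954 CPM in WT (adjusted p = 0.103 in edgeR). Mrto4, a ribosome assembly factor whose gene lies 0.254 Mb from Nbl1, was at 24.1 to 27.9 CPM in keeping and 17.3 to 27.7 CPM in lacking mice. Reads of the copy and of Mrto4 can be assigned to either.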
